A study of Homo sapiens with 18 samples.

Results

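The LIN28, HMGA and IGF2BP families were read here as a group of 7 oncofetal genes, LIN28A, LIN28B, HMGA1, HMGA2, IGF2BP1, IGF2BP2 and IGF2BP3, in an ATAC-seq study of 6 established human ovarian cancer cell lines. ATAC-seq marks open chromatin by the places where the Tn5 transposase can insert its adapters. Windows of the deposited table were taken when they overlapped the annotated span of a member gene extended by 10 kb on either side (GENCODE release 44, GRCh37, which is hg19), whatever their values. This gave 64 of the 89428 windows in the table. Of these, 15 lay at a promoter of a member, 45 were distal, and 4 lay at the promoter of another coding gene and were kept apart. IGF2BP2 had 21 windows, HMGA1 14, IGF2BP3 11, HMGA2 10, IGF2BP1 6 and LIN28A 2. LIN28B had 0 and is not analysed here, so the group is in effect HMGA1, HMGA2 and the IGF2BP genes.

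Each of 3 platinum-resistant lines is paired with its sensitive counterpart, with 3 libraries per line and 18 in all. CP70 was derived in culture from A2780, a pair that the paper sets apart from high-grade serous ovarian cancer. PEA1 and PEA2 came from ascites of the same patient with high-grade serous cancer, before platinum treatment and after relapse. PEO1 and PEO4 came from another such patient, both after platinum-based treatment, before and after resistance appeared. All lines were grown in the same medium with serum, no drug exposure of the libraries is given, and each line is a single culture model, so a pair is 1 instance of resistance. The libraries held 8963079 to 60435027 reads, and the share of reads in the windows was 32.9% to 35.9% for PEO4, 38.9% to 40.8% for PEO1, 17.1% to 20.7% for PEA2, 12.9% to 16.8% for PEA1, 11.8% to 15.6% for CP70 and 8.38% to 10.0% for A2780. Of 8 epithelial and ovarian carcinoma genes, 8 had promoter windows, and the promoter sum of PAX8, a transcription factor of Müllerian epithelium, ran from 2.93 FPKM in A2780 to 47.6 FPKM in PEO1. The promoters of the leukocyte genes PTPRC and CD3E had no window in the table, although both had distal windows, with a summed level at PTPRC of 12.3 ± 0.294 FPKM (SD, n = 3) in PEO1. Their part in the results was not tested.

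LIN28A and LIN28B are RNA-binding proteins that block the maturation of the let-7 microRNAs, which are low in the embryo and rise as tissues differentiate. HMGA1 and HMGA2 are small chromatin proteins that bind AT-rich DNA, and HMGA2 messenger RNA is a classic target of let-7. IGF2BP1, IGF2BP2 and IGF2BP3 bind messenger RNAs and affect their stability, transport and translation, and several of their own transcripts carry let-7 sites. Most members are high in fetal tissue and low in most adult tissue, and they are often expressed again in carcinomas. HMGA1 and IGF2BP2 are the members with the widest expression in adult cells.

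The sequences at the start of 3 members show the kinds of promoter compared. RefSeq promoters of 300 bases, from 250 bases before to 50 after the start, matched 4 of the 7 members (LIN28B, HMGA1, IGF2BP2 and IGF2BP3) and are given on GRCh38.p14, 5′ to 3′ along the gene. LIN28A, HMGA2 and IGF2BP1 are the other members. Capitals mark the GC box GGGCGG on either strand, a binding sequence of Sp family factors, which was in 45.0% of 35116 promoters of that length.
HMGA1 promoter, chr6:34236623-34236922, plus strand: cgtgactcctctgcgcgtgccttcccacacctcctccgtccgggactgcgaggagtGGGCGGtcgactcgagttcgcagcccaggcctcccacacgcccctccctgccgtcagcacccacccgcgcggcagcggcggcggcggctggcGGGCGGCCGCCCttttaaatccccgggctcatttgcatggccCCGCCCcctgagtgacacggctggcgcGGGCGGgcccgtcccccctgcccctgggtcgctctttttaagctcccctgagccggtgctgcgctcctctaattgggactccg
IGF2BP2 promoter, chr3:185824993-185825292, minus strand: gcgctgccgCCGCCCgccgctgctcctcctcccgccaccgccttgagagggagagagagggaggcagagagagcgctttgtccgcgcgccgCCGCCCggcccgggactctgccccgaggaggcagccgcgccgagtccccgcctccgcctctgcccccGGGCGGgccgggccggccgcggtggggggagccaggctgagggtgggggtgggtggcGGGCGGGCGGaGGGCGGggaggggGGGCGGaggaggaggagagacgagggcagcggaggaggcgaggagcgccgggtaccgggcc
IGF2BP3 promoter, chr7:23470442-23470741, minus strand: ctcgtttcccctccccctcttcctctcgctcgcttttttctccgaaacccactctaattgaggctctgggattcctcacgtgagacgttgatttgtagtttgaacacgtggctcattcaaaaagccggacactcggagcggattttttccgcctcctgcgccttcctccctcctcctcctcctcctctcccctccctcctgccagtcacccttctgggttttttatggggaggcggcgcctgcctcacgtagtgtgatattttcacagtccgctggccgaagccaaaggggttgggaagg
The HMGA1 sequence had 5 GC boxes, 33 CpG dinucleotides and 72.0% GC, and the IGF2BP2 sequence had 7 GC boxes, 38 CpG and 80.7% GC. The IGF2BP3 sequence had no GC box in this stretch, 17 CpG and 56.3% GC, and held the E-box CACGTG at 2 places, a sequence found in 7.3% of all promoters. Over the 15 member promoter windows, 12 were CpG-rich (more than 50% GC and more than 0.6 of the CpG number their base content predicts), against 7 of the 45 distal windows.

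Distal windows of IGF2BP2 carried every called change among the members. For this reason a stretch of 200 bases is shown, on the GRCh37 plus strand, from the window with the largest called rise in the PEA pair, that with the largest called fall in the PEO pair, and the distal window with the highest level, which was not called. Capitals mark TGANTCA, the sequence bound by AP-1 factors, read on both strands, and the stretch is centred on the match nearest to the window's centre.
Window higher in PEA2 than PEA1, chr3:185447264-185447463: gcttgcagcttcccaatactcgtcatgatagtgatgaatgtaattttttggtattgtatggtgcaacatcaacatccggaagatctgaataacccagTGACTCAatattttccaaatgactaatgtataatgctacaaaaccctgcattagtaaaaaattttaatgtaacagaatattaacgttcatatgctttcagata
Window lower in PEO4 than PEO1, chr3:185374316-185374515: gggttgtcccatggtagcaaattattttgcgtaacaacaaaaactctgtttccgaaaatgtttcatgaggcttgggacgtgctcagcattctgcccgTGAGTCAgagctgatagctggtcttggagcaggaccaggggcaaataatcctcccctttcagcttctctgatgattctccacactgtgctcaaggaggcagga
Window that moved in opposite directions in both pairs, chr3:185514623-185514822: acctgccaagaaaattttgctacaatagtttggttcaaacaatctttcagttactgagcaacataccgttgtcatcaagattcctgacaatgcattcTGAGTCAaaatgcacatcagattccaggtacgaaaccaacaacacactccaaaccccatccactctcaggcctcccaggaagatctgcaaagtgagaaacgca
The third window held 3 matches in its whole length. Of the 7 called windows 2 held a match, so the stretches shown are not typical of the called windows in this respect. TGANTCA was in 7 of the 18 distal windows of IGF2BP2 and in 14 of the 45 distal member windows (31.1%), against 46.8% of all 64055 distal windows in the table. GGAATG, the sequence bound by TEAD factors, was in 25 of 45 (55.6%), against 49.5% of all.

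Levels are FPKM, here reads per kilobase of window scaled to the size of the library. A gene's promoter sum or distal sum adds its windows of that kind, and every sum below is given for 3 libraries per line. Since the lines differ in the share of reads in the windows, each promoter was also ranked within each library by its FPKM per window. The ranks are among the 14171 of 20136 coding genes with a promoter window in the table, and the 50th percentile is the middle of these. Promoters closed in nearly all lines are not among them. The median promoter of these genes was at 6.08 FPKM per window for PEO1, 5.96 for PEO4, 2.71 for PEA1, 2.67 for CP70, 2.29 for PEA2 and 1.74 for A2780. The 6 lines differed at 5 of 5 member promoter sums and 5 of 5 distal sums at an adjusted p below 0.001 (limma F test over all genes). The same held for 98.1% of all promoter sums and 98.1% of all distal sums, so that count is not particular to the members. Every window in the table exceeds 2 FPKM in at least 2 libraries. Of the member windows 15 of 45 distal and 3 of 15 promoter windows did so in 1 line only, so they are in the table through the line where they are high. In bulk libraries, more open chromatin per copy, more copies of a locus and a larger share of cells with the region open cannot be told apart.

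LIN28A encodes the form of the let-7 inhibitor found in pluripotent cells. Its 2 windows lie 21.1 kb and 22.0 kb downstream of its start at the promoter of DHDDS, an enzyme of dolichol synthesis. The first of them was at 5.18 FPKM in PEO4, 4.60 in PEO1, 2.12 in CP70, 1.75 in A2780, 1.73 in PEA1 and 0.836 in PEA2 (means of 3 libraries). No window at a start of LIN28A or LIN28B was in the table used, so the accessibility of these promoters was not read.

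**Figure D1:**
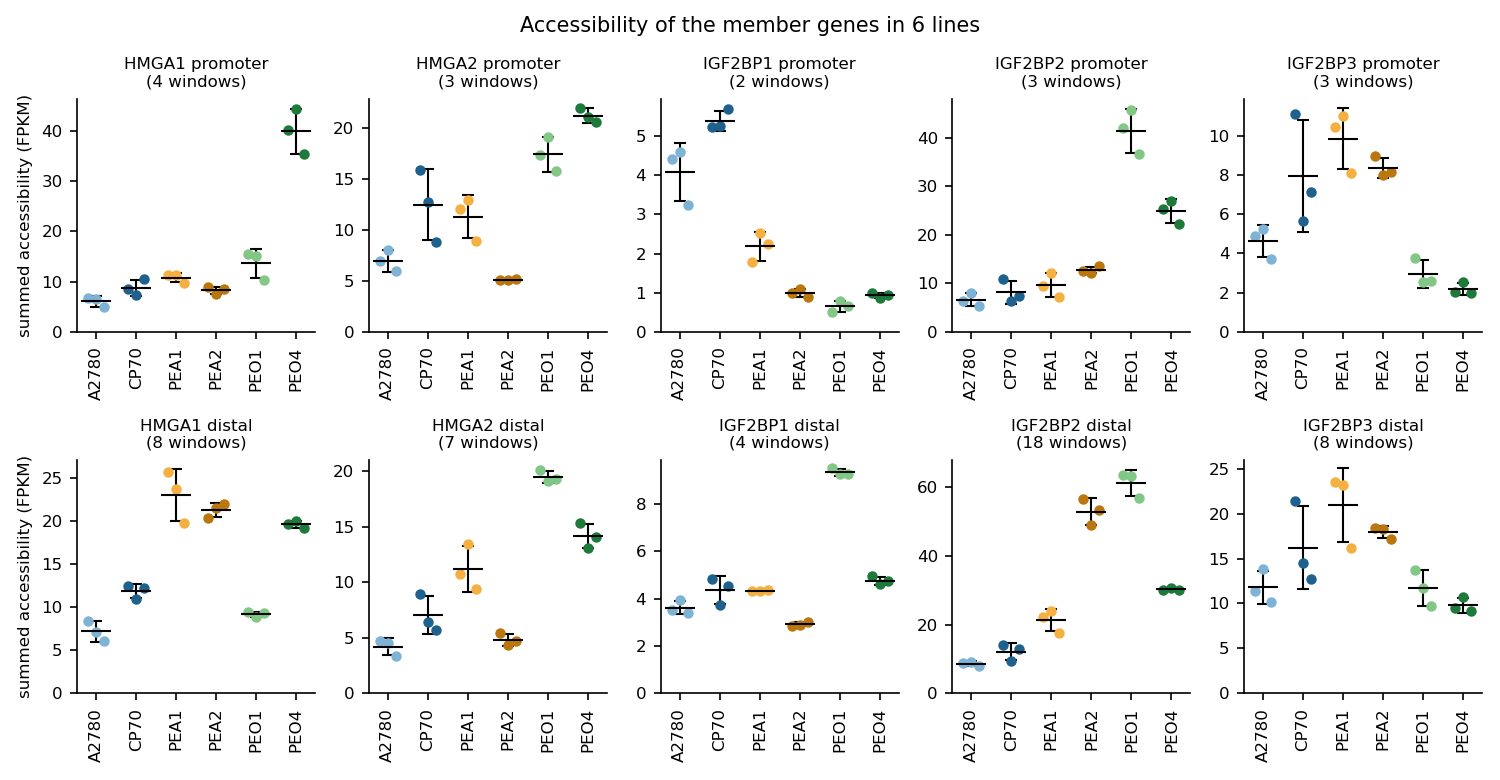
Summed accessibility (FPKM, each axis from 0) of the promoter windows (upper row) and distal windows (lower row) of 5 member genes in the 6 lines. Points are the 3 libraries of a line, and bars are the mean and SD. HMGA1 stands highest in PEO4 at its promoter, IGF2BP1 in CP70 and A2780, IGF2BP2 in PEO1, and IGF2BP3 in PEA1, while the distal sums follow other orders.

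HMGA1 (ENSG00000137309, chr6:34204650-34214008, plus strand) encodes the more widely expressed HMGA protein. Its promoter sum over 4 windows was 6.75, 6.47 and 4.88 FPKM in the A2780 libraries and 8.48, 7.36 and 10.4 FPKM in CP70. It was 11.2, 11.3 and 9.69 FPKM in PEA1 and 8.85, 7.46 and 8.47 FPKM in PEA2. It was 15.5, 15.0 and 10.4 FPKM in PEO1 and 40.2, 44.2 and 35.3 FPKM in PEO4. The 3 PEO4 libraries lay far above all others, and PEO1 overlapped PEA1. Within libraries the promoter stood at the 76.7th percentile in PEO4 and at the 23.4th in PEO1, with 39.1 to 49.7 in the other lines, so the gap between PEO1 and PEO4 was present in rank as well as in level. PEO4 exceeded the next line, PEO1, by 1.56 on the log2 scale (adjusted p = 1.78e-11, limma over the 6 lines), whereas PEO1 and PEA1 (adjusted p = 0.13), PEA1 and CP70 (0.233) and CP70 and PEA2 (0.776) did not differ beyond their spread. All 4 promoter windows shared the PEO4 peak, and the window over the start (chr6:34204500-34205500) was at 4.24 ± 0.9 FPKM in PEO1 and 14.5 ± 0.97 FPKM in PEO4 (SD, n = 3).

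The distal sum of HMGA1, over 8 windows, had another order. It was highest in PEA1 at 23.0 ± 2.99 FPKM, PEA2 at 21.3 ± 0.822 and PEO4 at 19.6 ± 0.393, neighbours that did not differ beyond their spread (adjusted p = 0.533 and 0.463, limma). CP70 (11.8 ± 0.815), PEO1 (9.16 ± 0.309) and A2780 (7.16 ± 1.18) were lower. A window 8.65 kb upstream of the start (chr6:34195500-34196500) held the highest distal level. Its libraries were at 8.01, 6.29 and 5.37 FPKM in PEA1, 3.08, 3.70 and 3.86 FPKM in PEA2, 1.52, 1.40 and 1.34 FPKM in PEO1 and 5.46, 5.71 and 5.68 FPKM in PEO4, with means of 0.683 in A2780 and 0.911 in CP70. This window was therefore most open in PEA1, PEO4 and PEA2 and lowest in A2780 and CP70, an order unlike that of the promoter. The other 3 upstream windows did not share the high level of PEO4, as at the one that starts at 34197300, where its mean was 0.644 FPKM and that of CP70 0.737 FPKM. That window exceeded 2 FPKM in PEA1 libraries only, so it is in the table through PEA1. A promoter of SMIM29 downstream of HMGA1 was counted apart. The distal windows that start at 34213500, 34214400 and 34215300 also lie over SMIM29. They are in the HMGA1 distal sum, and the counts cannot assign them to either gene.

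HMGA2 (ENSG00000149948, chr12:66218240-66360071, plus strand) encodes the embryonic HMGA protein. Its promoter sum over 3 windows was 6.89, 8.02 and 5.92 FPKM in A2780, 15.8, 12.7 and 8.84 FPKM in CP70 and 12.1, 12.9 and 8.92 FPKM in PEA1. It was 5.06, 5.03 and 5.15 FPKM in PEA2, the lowest line, 17.3, 19.1 and 15.7 FPKM in PEO1 and 22.0, 21.0 and 20.6 FPKM in PEO4. PEO4 and PEO1 did not differ beyond their spread in the 6-line fit (adjusted p = 0.276, limma), nor did CP70 and PEA1 (0.667) or A2780 and PEA2 (0.0625). Within libraries the order changed: the promoter stood at the 78.8th percentile in CP70, 75.0th in PEA1, 71.4th in A2780, 59.1st in PEO4, 47.4th in PEO1 and 29.5th in PEA2. The low place of PEA2 was therefore kept in rank, whereas the lead of the PEO lines was not. The promoter windows also lie over RPSAP52, a transcript antisense to HMGA2, and the counts cannot assign them to either gene.

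All 7 distal windows of HMGA2 were intronic and their sum was highest in PEO1 at 19.5 ± 0.549 FPKM, then PEO4 at 14.2 ± 1.1 and PEA1 at 11.2 ± 2.06. CP70 (7.03 ± 1.69), PEA2 (4.82 ± 0.529) and A2780 (4.19 ± 0.745) were lower, and PEA2 and A2780 did not differ beyond their spread (adjusted p = 0.262, limma). Single introns differed in their lines. The window 12.3 kb into the gene (chr12:66230100-66231100) exceeded 2 FPKM in CP70 libraries only, so it is in the table through CP70. It was at 1.08, 1.04 and 0.827 FPKM in A2780 and 2.95, 2.39 and 1.30 FPKM in CP70, and had means of 0.627 FPKM or less in the other 4 lines. The window 123.9 kb in (chr12:66341700-66342700) had the reverse pattern, with means of 0.302 and 0.118 FPKM in A2780 and CP70 and of 3.49 and 2.83 FPKM in PEO1 and PEO4.

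IGF2BP1 (ENSG00000159217, chr17:47074747-47133507, plus strand) encodes the founding member of its family, which binds the coding region of MYC messenger RNA. Its promoter sum over 2 windows was 4.41, 4.60 and 3.24 FPKM in A2780 and 5.23, 5.27 and 5.70 FPKM in CP70. It was 1.79, 2.52 and 2.25 FPKM in PEA1 and 0.989, 1.10 and 0.887 FPKM in PEA2. It was 0.506, 0.785 and 0.669 FPKM in PEO1 and 0.988, 0.864 and 0.946 FPKM in PEO4. The A2780 and CP70 libraries were all above those of every other line, although the median promoter of all genes was lowest in A2780, and the promoter stood at the 62.1st and 53.7th percentile there. It stood at the 9.37th in PEA1 and below the 2nd in PEA2 (1.22), PEO1 (0.814) and PEO4 (1.37). Its window over the start exceeded 2 FPKM in CP70 libraries only, and the other in A2780 and CP70 libraries only. Both are in the table through these lines, so the low level and rank elsewhere are in part fixed by that selection. CP70 and A2780 did not differ beyond their spread (adjusted p = 0.121, limma), and neither did PEA2 and PEO4 (0.766) or PEO4 and PEO1 (0.116).

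The distal sum of IGF2BP1, over 4 windows, was highest in the line with the lowest promoter sum: 9.34 ± 0.15 FPKM in PEO1 against 2.92 ± 0.0843 in PEA2 and 3.62 ± 0.27 to 4.76 ± 0.169 in the other 4. PEO1 exceeded PEO4, the next line, by 0.96 on the log2 scale (adjusted p = 3.89e-06, limma). A pair of neighbouring intronic windows made this difference. The window 38.1 kb into the gene (chr17:47112300-47113300) was at 2.93, 3.75 and 3.57 FPKM in PEO1 and 0.814, 1.01 and 0.747 FPKM in PEO4. The next window, 39.0 kb in, was at 4.55, 3.40 and 3.79 FPKM in PEO1 and 1.28, 1.30 and 1.05 FPKM in PEO4, with means of 0.467 to 0.976 FPKM in the other lines. Every PEO1 library was above every library of the other lines at both, and both windows are in the table through PEO1 alone.

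IGF2BP2 (ENSG00000073792, chr3:185360918-185542830, minus strand) encodes the family member that stays expressed in many adult tissues. Its promoter sum over 3 windows was 6.38, 8.07 and 5.34 FPKM in A2780 and 10.8, 6.35 and 7.29 FPKM in CP70. It was 9.36, 12.2 and 7.19 FPKM in PEA1 and 12.6, 12.1 and 13.5 FPKM in PEA2. It was 42.1, 45.6 and 36.7 FPKM in PEO1 and 25.4, 27.0 and 22.1 FPKM in PEO4. PEO1 exceeded PEO4 by 0.74 on the log2 scale (adjusted p = 0.0020, limma over the 6 lines), and PEO4 stood 0.95 above PEA2, while PEA2 and PEA1 (adjusted p = 0.0607), PEA1 and CP70 (0.365) and CP70 and A2780 (0.207) did not differ beyond their spread. In rank the promoter stood at the 88.5th percentile in PEO1 and the 85.7th in PEA2, 67.4th in PEO4, 67.0th in A2780, 61.7th in PEA1 and 50.2nd in CP70, so PEA2 was near PEO1 by rank and far below it by level.

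The distal sum of IGF2BP2 covered 18 windows, 14 intronic, 3 over coding exons and 1 upstream, and spanned the widest range of the 5 distal sums. It was 8.87, 9.10 and 7.97 FPKM in A2780, 14.2, 9.40 and 12.7 FPKM in CP70 and 22.3, 23.9 and 17.6 FPKM in PEA1. It was 56.6, 48.8 and 53.2 FPKM in PEA2, 63.4, 63.3 and 57.0 FPKM in PEO1 and 30.1, 30.7 and 30.1 FPKM in PEO4. PEO4 exceeded PEA1 by 0.52 on the log2 scale (adjusted p = 7.97e-04, limma), and the 2 highest lines, PEO1 and PEA2, did not differ beyond their spread (adjusted p = 0.161). The windows 91.9 kb to 108.1 kb in exceeded 2 FPKM in PEA2 libraries only, and those 165.7 kb and 168.4 kb in did so in PEO1 libraries only. They are in the table through these lines, so the range and order of the sum are in part fixed by that selection. The window 28.0 kb into the gene (chr3:185514300-185515300) held the highest distal level, with means of 10.5 FPKM in PEO1, 5.88 in PEA2, 3.40 in PEO4, 1.45 in PEA1, 0.854 in CP70 and 0.491 in A2780.

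IGF2BP3 (ENSG00000136231, chr7:23349828-23510110, minus strand) encodes the most strictly fetal member of its family. Its promoter sum over 3 windows was 4.90, 5.25 and 3.70 FPKM in A2780 and 11.1, 5.63 and 7.12 FPKM in CP70. It was 10.4, 11.0 and 8.10 FPKM in PEA1 and 8.96, 7.98 and 8.16 FPKM in PEA2. It was 3.74, 2.53 and 2.56 FPKM in PEO1 and 2.03, 2.54 and 1.99 FPKM in PEO4. Its lowest line was a PEO line in FPKM although the PEO libraries have the highest FPKM over promoters in general, and the rank was 3.57 in PEO1 and 2.74 in PEO4 against 65.4 in PEA1, 63.2 in PEA2, 47.3 in CP70 and 40.3 in A2780. None of its promoter windows exceeded 2 FPKM in a PEO library, so they are in the table through the other lines. The low level and rank in PEO1 and PEO4 are in part fixed by that selection. PEA1 and PEA2 (adjusted p = 0.367, limma), PEA2 and CP70 (0.614) and PEO1 and PEO4 (0.126) did not differ beyond their spread.

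The 3 promoter windows of IGF2BP3 did not move together. The window over the canonical start (chr7:23509800-23510800) was at 5.01 ± 0.978 FPKM in PEA1 and 0.953 ± 0.177 FPKM in PEO4. The window at an internal start 122.2 kb into the gene (chr7:23387400-23388400) was highest in PEA2 at 2.07 FPKM, then PEO1 at 1.23 FPKM, and was at 0.273 and 0.256 FPKM in A2780 and CP70 (means of 3 libraries). It exceeded 2 FPKM in PEA2 libraries only and is in the table through PEA2, so its highest place there is fixed by that selection. The distal sum was the flattest of the 5, from 9.78 ± 0.859 FPKM in PEO4 to 21.0 ± 4.16 FPKM in PEA1, and its log2 range of 1.09 over the line means was wider than that of 4.43% of all genes. A window 3.8 kb upstream of the start (chr7:23513400-23514400) was the highest of the gene's windows in A2780, CP70, PEA1, PEA2 and PEO4, at 6.70 ± 2.28 FPKM in CP70.

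**Figure D2:**
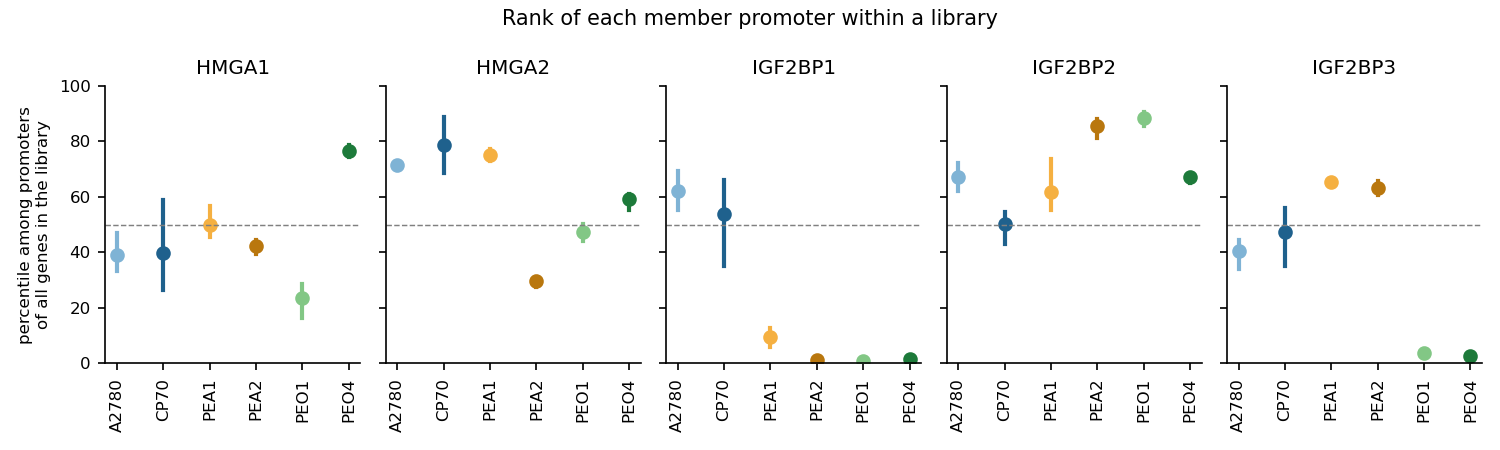
Percentile of each member promoter within a library, by FPKM per window, among the 14171 coding genes with a promoter window in the table. Points are the mean over the 3 libraries of a line, bars span the lowest to the highest library, and the dashed line marks the middle gene. IGF2BP1 lies at 62.1 in A2780 and 0.814 in PEO1, IGF2BP3 at 65.4 in PEA1 and 2.74 in PEO4, and HMGA1 at 23.4 in PEO1 and 76.7 in PEO4. The promoter windows of IGF2BP1 and IGF2BP3 are in the table through the lines where they are high. Their lowest ranks are in part fixed by that selection.

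Set against all genes, the promoters were not unusually variable as a group. The log2 range of the line means was 2.71 for HMGA1, 2.04 for HMGA2, 2.87 for IGF2BP1, 2.63 for IGF2BP2 and 2.12 for IGF2BP3, beside a median of 2.21 over all genes. Of their 15 promoter windows 7 were highest in PEO4, 3 in PEO1, 2 in CP70 (both of IGF2BP1), 2 in PEA1 and 1 in PEA2 (all 3 of IGF2BP3). Of all promoter windows 40% were highest in PEO4, 46.7% in PEO1, 3.76% in CP70, 4.09% in PEA1 and 5.38% in PEA2. The member windows belong to 5 genes, neighbouring windows of a gene are not independent, and the difference from the table was not tested. Over the 6 line means on the log2 scale, Pearson's r between the promoters of IGF2BP1 and IGF2BP2 was -0.88, and between those of HMGA1 and HMGA2 it was 0.79. These are descriptions over 6 lines that share the library scaling.

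The promoters most like each member over the same 6 line means were chosen by Pearson's r among 14049 genes. They were RPL38 (0.997), KANK3 (0.995) and TTYH2 (0.994) for HMGA1, and SPATS2 (0.999), WDR43 (0.998) and ADRA2C (0.995) for HMGA2. For IGF2BP1 they were CACNA1B (0.986), RSPH9 (0.973) and NES (0.956), so this promoter had the least close neighbours of the 5. For IGF2BP2 they were TMEM44, PAK2 and GABRE (each 0.999), and for IGF2BP3 EIF4E1B and SNCB (both 0.992, sharing windows) and INSRR (0.985).

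The question of the pairs was which regions differ between a resistant line and its sensitive partner. Calls of single windows needed a log2 fold change of more than 2 in either direction with an adjusted p below 0.001, and a sum was taken as changed above 1 in size with an adjusted p below 0.05 (limma on log2(FPKM + 0.1) over all windows or genes, with Benjamini-Hochberg adjustment). The labels do not say that libraries of a line came from separate cultures, so the p-values measure the spread between these libraries. The median log2 fold change over all windows tested was 0.59 for CP70 over A2780, 0.31 for PEA2 over PEA1 and -0.30 for PEO4 over PEO1, and member changes are given beside the median change of their 5 Mb stretch of chromosome, which neighbours share. As an alternative each library was centred on the median log2 level of that stretch before the fit, which is not the same as subtracting the median change. The direction of calls over the whole table depended on the scaling. In the A2780 pair 53.7% of called windows, 92.3% of changed promoter sums and 90% of changed distal sums were higher in CP70, and 14.6%, 23.2% and 26.5% when each library was centred on its median. In the PEA pair these shares were 88.8%, 38.9% and 74.6%, and 71.8%, 64.4% and 52.4% after centring. In the PEO pair they were 32%, 39.5% and 27.9%, and 56.3%, 44.7% and 50% after centring.

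In the A2780 pair 0 of the 32 member windows tested were called, where 0.797% of all windows tested were, and 21 of the 32 had an unadjusted p under 0.05, all of them higher in CP70. edgeR on the recovered reads also called 0. The median member window was at 0.56, close to the 0.59 of all windows. Of the promoter sums 0 of 5 changed (8.43% of all genes) and of the distal sums 0 of 5 (8.18% of all genes), with 2 and 4 at an unadjusted p under 0.05 and again 0 by edgeR. The largest promoter difference was HMGA2, where CP70 stood 0.81 higher on the log2 scale (adjusted p = 0.0198), with CP70 libraries from 8.84 to 15.8 FPKM against 5.92 to 8.02 FPKM. At the window over the HMGA2 start (chr12:66217500-66218500) the difference was 1.16 (adjusted p = 8.03e-04), from 2.67 ± 0.632 to 6.15 ± 1.81 FPKM, beside 0.66 for its 5 Mb stretch. In IGF2BP1 and IGF2BP2 the largest window differences were 0.52 and 0.71.

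In the PEA pair 3 of 51 member windows tested were called (5.88%), where 12.7% of all windows tested were, and all 3 were IGF2BP2 introns that were higher in PEA2. These 3 windows exceeded 2 FPKM in PEA2 libraries only and entered the table through that line, so their low level elsewhere is in part fixed by that selection. The window 95.5 kb into the gene (chr3:185446800-185447800), shown above, was at 0.320, 0.280 and 0.240 FPKM in PEA1 and 2.20, 2.02 and 2.17 FPKM in PEA2, a log2 fold change of 2.56 (SE 0.307, adjusted p = 8.5e-16). The window 108.1 kb in (chr3:185434200-185435200) rose from 0.352, 0.530 and 0.575 FPKM to 3.08, 3.35 and 3.02 FPKM, by 2.49 (SE 0.26, adjusted p = 1.56e-20). The window 97.3 kb in (chr3:185445000-185446000) rose from 0.160, 0.498 and 0.479 FPKM to 2.09, 1.73 and 2.13 FPKM, by 2.21 (SE 0.3, adjusted p = 1.18e-12), and fell short of the threshold at 1.82 without PEA1 replicate 1. None of the PEA1 and PEA2 libraries overlapped at these windows, which also lie over IGF2BP2-AS1, an antisense transcript. All 16 tested distal windows of IGF2BP2 stood higher in PEA2, 14 with an adjusted p below 0.05, and their median was 1.37. Those of the 16 that lie 91.9 kb to 108.1 kb in exceeded 2 FPKM in PEA2 libraries only. Their direction is thus in part fixed by that selection. The 230 tested windows of the surrounding 5 Mb had a median of 1.53, so the gene moved as much as its stretch of chromosome did, and 7 of the 16 exceeded that median. With each library centred on the stretch the 3 called windows stood at 0.85, 0.78 and 0.50. A pseudocount of 1 in place of 0.1 left 0 of the 3 called. Whether copy number moved with them was not tested.

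**Figure D3:**
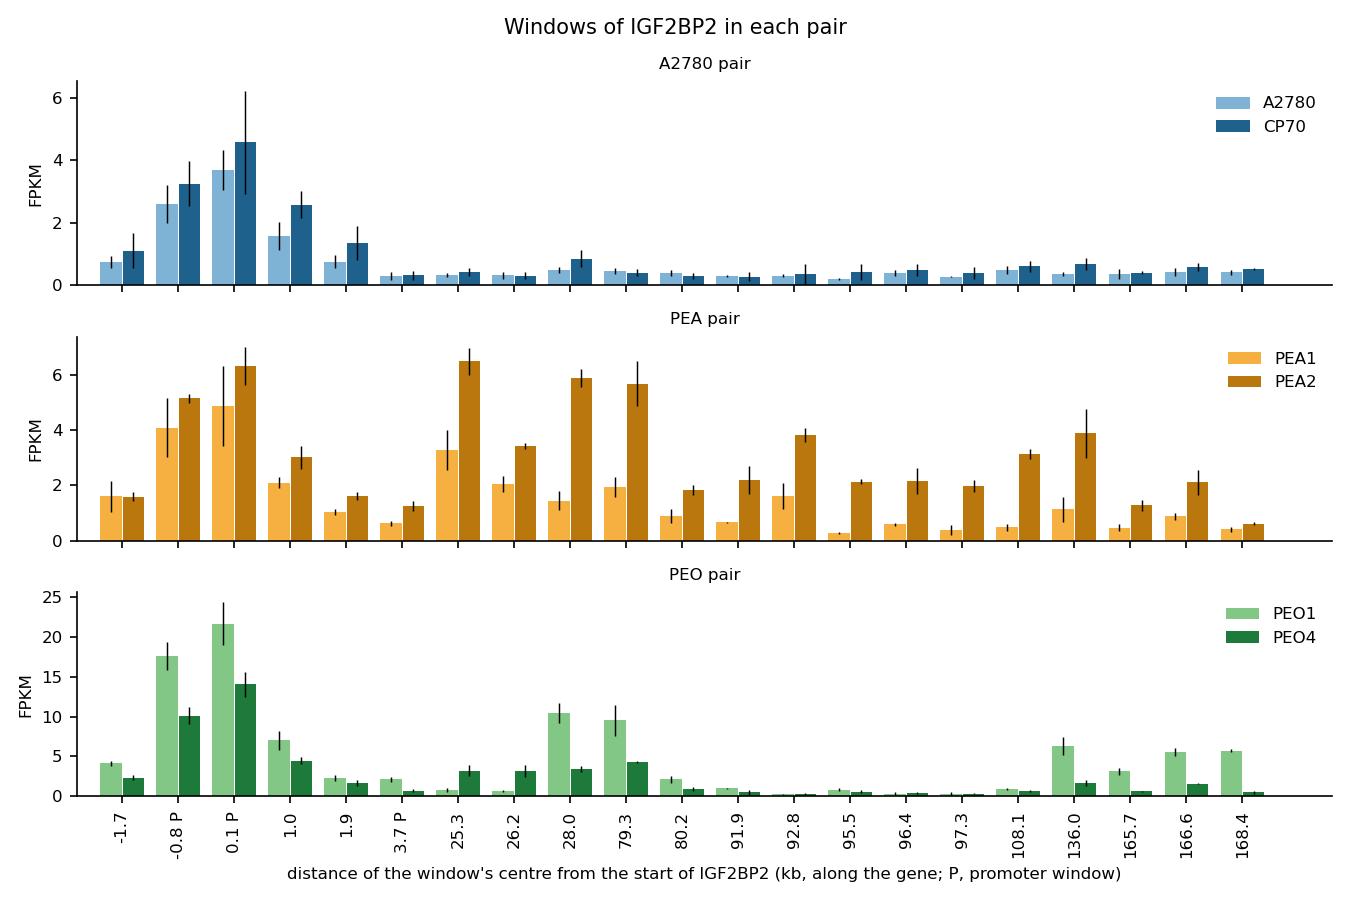
Accessibility (FPKM) of the 21 IGF2BP2 windows in each pair, by the distance of the window's centre from the start of the gene in kb, with P marking promoter windows. Bars are the mean of 3 libraries from 0 and lines the SD, and the axes differ between pairs. Windows deep in the gene are near 0 in A2780 and CP70, higher in PEA2 than PEA1, and mostly lower in PEO4 than PEO1, with the windows 25.3 kb and 26.2 kb in as exceptions.

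Sums in the PEA pair followed the same split between genes. Of the promoter sums 2 of 5 changed, where 20% of all genes did, and both fell in PEA2. HMGA2 fell by 1.12 on the log2 scale (SE 0.211, adjusted p = 8.66e-07), with PEA1 libraries at 8.92 to 12.9 FPKM and PEA2 libraries at 5.03 to 5.15 FPKM, beside a median of -0.82 for the promoters of its 5 Mb, and stood at -0.37 with libraries centred on the stretch. IGF2BP1 fell by 1.06 (SE 0.247, adjusted p = 7.86e-05), beside a median of -1.16, a change that turned to 0.13 with libraries centred on the stretch and missed the threshold without PEA1 replicate 2 (-0.96) or PEA2 replicate 3 (-0.99). IGF2BP2 stood at 0.44 (adjusted p = 0.0696), HMGA1 at -0.37 (0.124) and IGF2BP3 at -0.22 (0.376), with PEA1 and PEA2 libraries overlapping at IGF2BP3. Of the distal sums 2 of 5 changed, where 32.5% of all genes did. IGF2BP2 rose by 1.32 (SE 0.164, adjusted p = 1.35e-10), beside a stretch median of 1.64, which turned to -0.35 with libraries centred on the stretch, and HMGA2 fell by 1.19 (SE 0.184, adjusted p = 6.69e-08), beside a stretch median of -0.40. Some windows of the IGF2BP2 sum are in the table through PEA2, so its rise is in part fixed by that selection. HMGA2 was thus the member whose promoter and distal sums both passed the threshold. The distal sums of IGF2BP1, HMGA1 and IGF2BP3 also stood lower in PEA2, at -0.56, -0.11 and -0.20, but did not pass. At the HMGA2 window 67.2 kb in (chr12:66285000-66286000) the libraries stood at 2.24, 2.90 and 1.92 FPKM in PEA1 and 0.879, 0.636 and 0.799 FPKM in PEA2.

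In the PEO pair 4 of 45 member windows tested were called (8.89%), where 8.49% of all windows tested were, again all at IGF2BP2 but in both directions. The window 168.4 kb into the gene (chr3:185373900-185374900), shown above, was at 5.56, 5.93 and 5.68 FPKM in PEO1 and 0.349, 0.624 and 0.399 FPKM in PEO4, and fell by 3.42 on the log2 scale (SE 0.24, adjusted p = 6.55e-15). Its means in the other 4 lines were 0.408 to 0.616 FPKM, and it exceeded 2 FPKM in PEO1 libraries only, so it is in the table through PEO1. The window 165.7 kb in (chr3:185376600-185377600) fell by 2.15 (SE 0.255, adjusted p = 2.8e-09), from 2.93, 3.58 and 2.79 FPKM to 0.581, 0.672 and 0.598 FPKM, and is in the table through PEO1 too. Nearer the start, the window 26.2 kb in rose by 2.05 (SE 0.263, adjusted p = 1.44e-08), from 0.809, 0.524 and 0.669 FPKM to 3.55, 2.26 and 3.54 FPKM. Its neighbour 25.3 kb in (chr3:185517000-185518000), which shares its edge, rose by 2.00 (SE 0.267, adjusted p = 3.51e-08), from 1.01, 0.785 and 0.446 FPKM to 3.72, 2.45 and 3.44 FPKM. Both lay at the threshold, and each fell below it without PEO4 replicate 1 or PEO4 replicate 3, the first also without PEO1 replicate 2 and the second without PEO1 replicate 3, with values of 1.71 to 1.95. They were also open in PEA1 (2.04 ± 0.293 and 3.28 ± 0.723 FPKM) and PEA2 (3.42 ± 0.0997 and 6.49 ± 0.482 FPKM), so here PEO1 stood with A2780 and CP70. A pseudocount of 1 left 1 of the 4 called.

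Most of the gene moved the other way in that pair. Of the 12 tested distal IGF2BP2 windows 10 stood lower in PEO4, 9 of them with an adjusted p below 0.05, and the median of the 12 was -1.13 beside -1.02 for the surrounding 5 Mb. With each library centred on the stretch the 2 windows that fell stood at -2.39 and -1.12 and the 2 that rose at 3.09 and 3.03. Neighbouring stretches of the gene therefore moved against each other, since the window 28.0 kb in stood 1.60 lower in PEO4 (adjusted p = 2.91e-12). Of the distal sums 2 of 5 changed, where 23.9% of all genes did. IGF2BP2 fell by 1.01 (SE 0.0736, adjusted p = 4.70e-14) beside a stretch median of -0.89, stood at -0.11 with libraries centred on the stretch, and lay under the threshold without PEO1 replicate 1 (-0.98) or 2 (-0.99). That sum includes the windows 165.7 kb and 168.4 kb in, so its fall is in part fixed by their entry through PEO1. HMGA1 rose by 1.09 (SE 0.106, adjusted p = 5.87e-11) beside a stretch median of 1.26, and turned to -0.18 with libraries centred on it. IGF2BP1 stood at -0.96 (SE 0.136, adjusted p = 1.77e-07) beside a stretch median of -0.09.

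At promoters 1 of the 4 sums tested in the PEO pair changed, where 12.6% of all genes did. HMGA1 rose by 1.56 (SE 0.112, adjusted p = 1.93e-26), beside a median of 1.31 for the 112 promoters of its 5 Mb, and stood at 0.31 with libraries centred on the stretch. All 4 of its promoter windows stood more than 1 higher on the log2 scale, with the window over the start at 1.77 (SE 0.138, adjusted p = 1.03e-13). IGF2BP2 stood at -0.74 (SE 0.101, adjusted p = 1.61e-10) beside -0.71 for its stretch, HMGA2 at 0.29 (adjusted p = 0.0222) and IGF2BP3 at -0.40 (0.117). IGF2BP1 was under the mean of 1 FPKM needed for the test. No member promoter window was called in any pair, although 7 of 13 tested in the A2780 pair, 7 of 12 in the PEA pair and 8 of 11 in the PEO pair had an unadjusted p under 0.05 (limma).

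**Figure D4:**
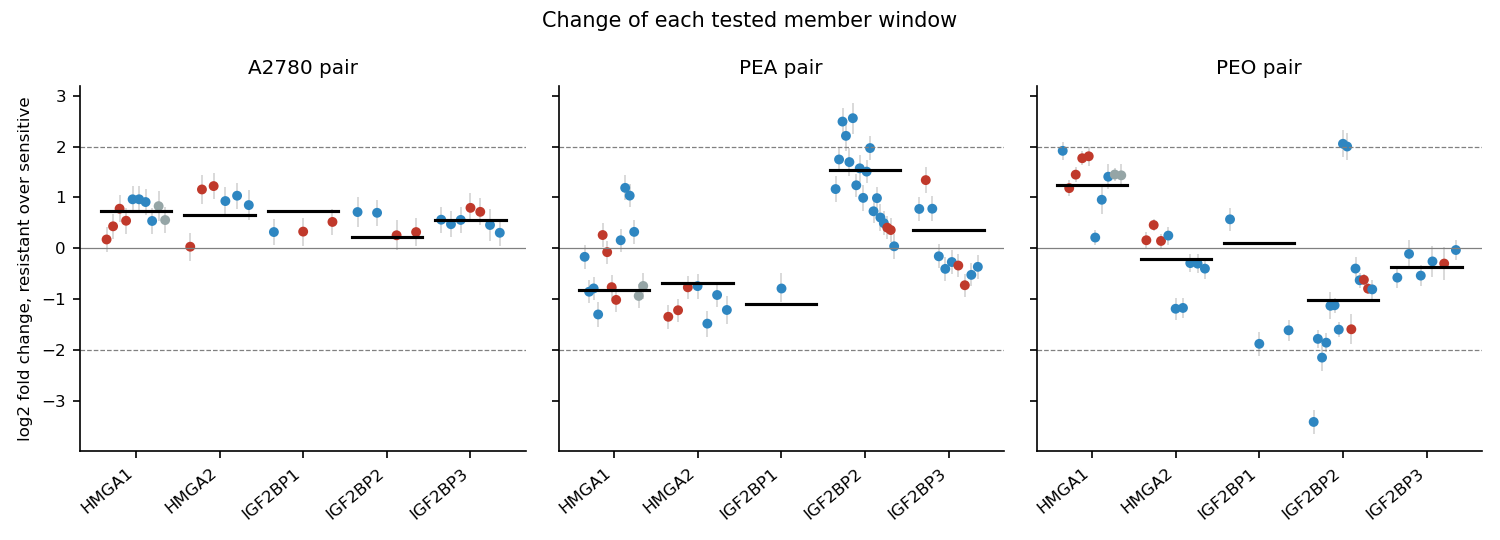
Log2 fold change, resistant over sensitive line, of every tested member window in the 3 pairs, with bars of 1 SE. Red points are promoter windows, blue distal windows and grey windows at the promoter of another gene, black lines are the median of all tested windows in the same 5 Mb, and dashed lines mark a log2 fold change of 2 in size. The points lie around the black lines for IGF2BP2 in the PEA pair and spread from -3.42 to 2.05 in the PEO pair.

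Whether a change differed between pairs was tested by subtracting 1 pair's log2 fold change from the other's. Between the PEA and PEO pairs 18 of 57 tested member windows differed by more than 2 with an adjusted p below 0.001, where 26.6% of all windows tested did. The 11 that were higher in the PEA pair and the 7 that were higher in the PEO pair divided by locus, since the 7 were 5 windows of HMGA1 and the 2 windows at the SMIM29 promoter downstream of it. The IGF2BP2 window 28.0 kb in stood 1.97 higher in PEA2 than PEA1 (adjusted p = 8.67e-17) and 1.60 lower in PEO4 than PEO1, a difference of 3.57 (adjusted p = 6.55e-16). The HMGA1 window 8.65 kb upstream was the reverse, at -0.86 for PEA2 over PEA1 and 1.92 for PEO4 over PEO1, a difference of -2.77 (adjusted p = 1.43e-12). The A2780 pair was set against both others. It differed from the PEA pair at 4 of 47 windows, where 12.8% of all windows tested did, and from the PEO pair at 9 of 49, where 8.12% did. The HMGA2 start differed between the A2780 and PEA pairs by 2.38 (adjusted p = 3.57e-09), since it stood 1.16 higher in CP70 than A2780 and 1.22 lower in PEA2 than PEA1. With a pseudocount of 1 the 3 counts were 9, 0 and 1, and with each library centred on its 5 Mb stretch 6, 0 and 3. Comparisons of pairs share the libraries of the pair they have in common.

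Resistant and sensitive lines were also compared over the 3 pairs, with the 6 line means as data and the pair as a block. Of the 55 member windows tested 0 were called by limma, as were 0% of all 74141 windows tested, and 1 of the 55 had an unadjusted p under 0.05 (1021 of all windows). That window was the IGF2BP2 window 25.3 kb in, where the mean change was 1.08 (unadjusted p = 0.0438, adjusted p above 0.99). The member changes ranged from -0.88 to 1.08 over the pairs.

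**Figure D5:**
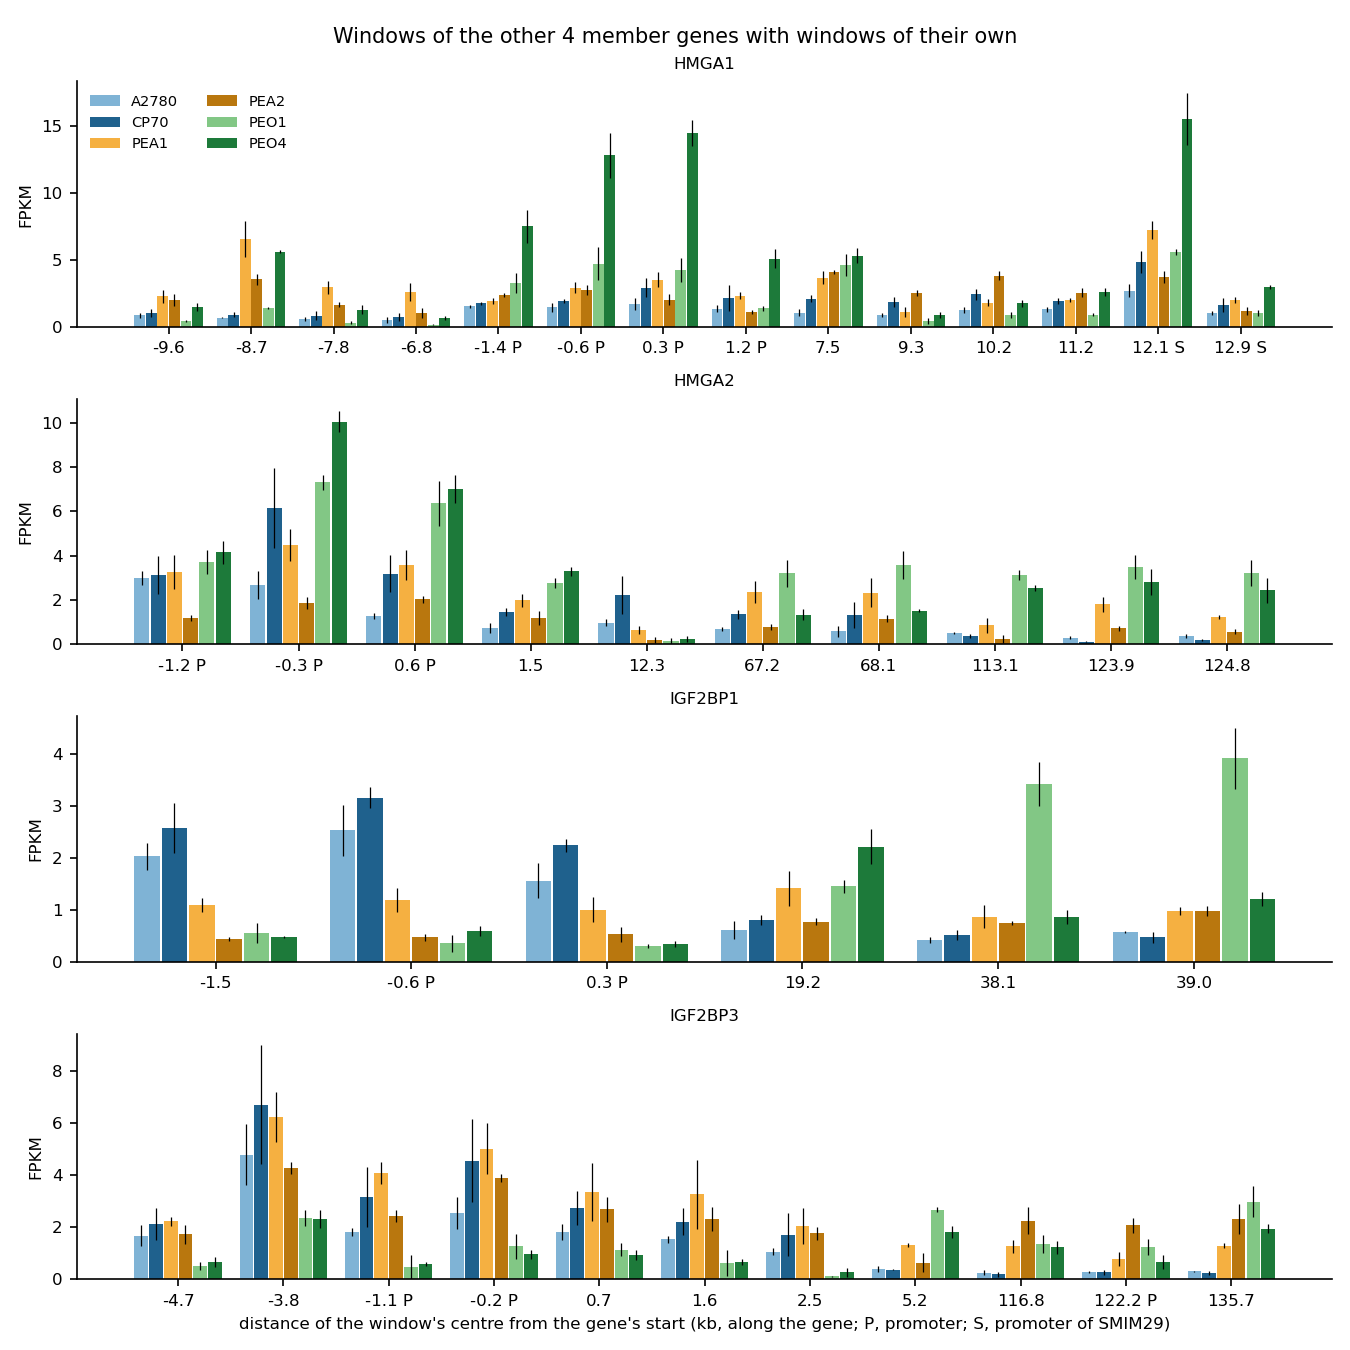
Accessibility (FPKM) of the windows of HMGA1, HMGA2, IGF2BP1 and IGF2BP3 in the 6 lines, by the distance of the window's centre from the start of the gene in kb. Bars are the mean of 3 libraries from 0, lines are the SD, P marks promoter windows of the gene and S those of SMIM29. The HMGA1 promoter stands out in PEO4, the IGF2BP1 promoter in A2780 and CP70, and the IGF2BP1 introns 38.1 kb and 39.0 kb in stand out in PEO1.

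The genes around the LIN28 and let-7 pathway were read from lists. Among 8 genes of let-7 processing and LIN28 action, 7 had tested promoter sums in each pair. DGCR8, the RNA-binding partner of DROSHA in the first cut of microRNA precursors, rose in CP70 from 2.44 ± 0.548 to 5.07 ± 1.27 FPKM, by 1.02 on the log2 scale (adjusted p = 9.96e-04). The promoters of its 5 Mb had a median of 0.79 in the A2780 pair. The others in that pair, and all 7 in the PEA and PEO pairs, did not pass (limma), although 3 and 5 of the 7 in the latter had an unadjusted p under 0.05. The list medians were 0.60, -0.11 and 0.09 beside 0.58, -0.20 and -0.04 over all genes. Of 3 distal sums tested in the PEA pair 1 changed, where 32.5% of all distal sums did. It was that of TRIM71, a ubiquitin ligase and let-7 target of the embryo, which fell by 1.48 (adjusted p = 9.00e-06). Of the 2 tested in the A2780 pair and the 4 in the PEO pair 0 passed, with 1 and 0 at an unadjusted p under 0.05. In these pairs 8.18% and 23.9% of all distal sums changed.

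Of 10 textbook let-7 targets the promoter sums of 0 changed in the A2780 pair and 0 in the PEO pair by limma, where 6 and 3 had an unadjusted p under 0.05, and 4 changed in the PEA pair, where 20% of all promoter sums did. CCND2, a cyclin of the G1 phase, rose by 1.35 (adjusted p = 1.50e-07), while the GTPase NRAS fell by 1.36 (4.89e-09), the DNA-binding protein ARID3B by 1.47 (7.92e-11) and the cell cycle factor E2F2 by 1.19 (2.09e-05). The median change of promoters in the same 5 Mb was 1.15 for CCND2, -0.87 for NRAS, -1.20 for ARID3B and -1.09 for E2F2. The list's median was -0.55 beside -0.20 over all genes. CCND2 also rose at its distal windows, with 1.75 ± 0.198 FPKM before and 8.99 ± 1.13 FPKM after relapse (PEA1 and PEA2, log2 2.30, adjusted p = 1.81e-16), and ARID3B fell by 1.34 there (adjusted p = 4.06e-09), of 4 distal sums tested. Of all distal sums 32.5% changed in the PEA pair.

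The let-7 genes themselves were read through windows within 10 kb. Of 12 loci in the annotation, 7 had windows, 22 distinct windows in all, of which 0 of 22 tested were called in the A2780 pair, 0 of 19 in the PEA pair and 3 of 16 in the PEO pair, 2 higher and 1 lower, beside 0.797%, 12.7% and 8.49% of all windows. At an unadjusted p under 0.05 there were 18, 15 and 12 (limma). The 2 that rose in PEO4 were at the let-7e locus on chromosome 19. One (chr19:52193700-52194700) was at 2.29 FPKM in PEO1 and 11.6 FPKM in PEO4 (means of 3 libraries), a change of 2.32 (adjusted p = 9.27e-15), and stood 1.58 lower in PEA2 than PEA1 (adjusted p = 2.57e-09). The other overlaps the promoter of a coding gene. The window that fell lies at the let-7a-3 and let-7b locus on chromosome 22 (chr22:46510200-46511200), from 2.57 to 0.561 FPKM, by 2.03 (adjusted p = 1.17e-07), and stood 1.18 higher in PEA2 than PEA1. At that locus a further 2 windows stood 1.73 and 1.75 higher in PEA2, under the threshold for a call.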

How the data were processed

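ATAC-seq was measured in 18 libraries of 6 lines. The authors removed duplicates with Picard, aligned reads to hg19 with Bowtie2 and counted unique reads in tiled windows with featureCounts, and deposited them as FPKM from edgeR's rpkm function (tools and build also in the submitters' processing notes, versions not given in the sources used here). Read ends were not stated to be shifted for Tn5, which matters little at this window size. All windows are of 1 length, so the deposited FPKM equal RPM times a constant. Windows were taken as 1001 bp every 900 bp, and their numbering matched GRCh37 at 23 of 23 chromosome steps. Each of the 89428 windows exceeded 2 FPKM in at least 2 libraries, so regions closed in nearly all lines are not in the table used. In every library 100% of values were whole multiples of 1 read, which gave 8963079 to 60435027 reads per library. The reads carry no molecular identifiers, and read numbers alone give the counting error and not the full spread between libraries.

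The members and lists were chosen with earlier results of these data known. Promoter windows overlapped 1 kb upstream to 100 bp downstream of a coding start. Values were tested as log2(FPKM + 0.1), above a mean of 1 FPKM, with limma 3.58.1 (trend) in R 4.3.3 over the whole table with Benjamini-Hochberg adjustment. Fold changes on this scale understate the change of low windows, and the trend took the place of the study's voom weights. Named items were all promoter windows of the members, the distal window with the largest change in each pair and the one with the highest line mean, the 3 promoters most alike, and listed genes. The called windows, the windows 39.0 kb into IGF2BP1 and 123.9 kb into HMGA2, and the let-7 windows were singled out after their values were seen. Lists covered let-7 processing, let-7 loci, let-7 targets, other oncofetal genes, and epithelial, mesenchymal and leukocyte markers, of which 1 gene is not reported here. edgeR 4.0.16 (quasi-likelihood, TMM) was run on the recovered reads. It called 332 windows in the A2780 pair (limma 296, shared 204), 8156 for PEA (8374, 7110) and 6637 for PEO (6594, 5395). Other alternatives were the pseudocount, filters, thresholds, centring, GC correction, spans, promoter width, a replicate block and leaving out each library. Scripts were tested on simulated data. Replicates differed by a chi-square per window of 1.07 to 2.10, so none were counted as 1 library.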

Additional observations from a re-analysis of the deposited data

Results flagged for a closer look

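The changes of 2 pairs differed, by a limma test of the difference itself (above 2 on the log2 scale with an adjusted p below 0.001), at 16 combinations of a distal member window and 2 pairs named here. Between the PEA and PEO pairs the difference, PEA minus PEO, was 3.57 (adjusted p = 6.55e-16) at the IGF2BP2 window 28.0 kb into the gene, 3.93 (1.12e-11) at that 168.4 kb in, 3.42 (1.05e-10) at that 165.7 kb in and 3.01 (5.96e-09) at that 108.1 kb in. It was -2.77 (1.43e-12) and -2.79 (1.13e-06) at the HMGA1 windows that start at 34195500 and 34197300 on chromosome 6, upstream of the gene.

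Between the A2780 and PEA pairs it was 2.39 (adjusted p = 2.55e-06) and 2.33 (3.56e-08) at the HMGA2 windows 12.3 kb and 67.2 kb into the gene, and -2.21 (2.33e-06) at the IGF2BP2 window 108.1 kb in. Between the A2780 and PEO pairs it was 2.04 (5.73e-06) and 2.21 (1.62e-05) at the HMGA2 windows 67.2 kb and 68.1 kb in and 2.13 (1.77e-05) at the IGF2BP1 window 38.1 kb in. In IGF2BP2 it was 3.68 (1.54e-09) at 168.4 kb, 2.31 (2.63e-05) at 165.7 kb, 2.27 (5.87e-07) at 28.0 kb and -2.11 (1.96e-04) at 26.2 kb. Some of these windows exceeded 2 FPKM in 1 line only and are in the table through it. In PEO1 these were the IGF2BP2 windows 168.4 kb and 165.7 kb in and the IGF2BP1 window 38.1 kb in. In PEA2 it was the IGF2BP2 window 108.1 kb in. In PEA1 it was the HMGA1 window at 34197300, and in CP70 the HMGA2 window 12.3 kb in. Their low level in the other lines is in part fixed by that selection. In the PEA and PEO pairs the median window of the surrounding 5 Mb changed by 1.53 and -1.02 at IGF2BP2. At HMGA1 it changed by -0.83 and 1.25. With each library centred on its 5 Mb stretch, 6 member windows differed between the PEA and PEO pairs. Between the A2780 and PEA pairs 0 did, and between the A2780 and PEO pairs 3. Groups of 3 libraries were not tested for a library far from the others.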

How the results depend on the processing

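Of the counts reported, 236 values under alternatives stayed within 1.5 times the main count and 43 moved. Of the single windows and sums named, 632 kept direction and side of the threshold, 44 lost the threshold, 7 passed it and 33 changed sign. Unless the setting itself removes windows or libraries, the cause was not tested. At a log2 fold change above 1 and an adjusted p below 0.05 the member windows passing were 3, 19 and 22 in the A2780, PEA and PEO pairs, in place of 0, 3 and 4. In the PEA pair 0 windows were called with a pseudocount of 1, a mean above 2 FPKM or the 5 Mb median removed (each library centred on the median log2 level of the stretch), and 1 with GC correction (leaving out 1 library: 2 to 4). In the PEO pair 1 was called with a pseudocount of 1 or a mean above 2 FPKM and 7 by edgeR (leaving out 1 library: 2 to 5). Changed promoter sums in the PEA pair were 1 with a pseudocount of 1, a mean above 2 FPKM or GC correction and 0 with median centring, the 5 Mb median removed or edgeR (leaving out 1 library: 1 to 2), and in the PEO pair 0 with the 5 Mb median removed. In the A2780 pair leaving out 1 library gave 0 to 1, with HMGA2 at 1.03 without CP70 replicate 3. Changed distal sums in the PEA pair were 1 with median centring, the 5 Mb median removed or edgeR, and in the PEO pair 1 with these, a pseudocount of 1 or GC correction (leaving out 1 library: 1 to 2). Windows that differed between the PEA and PEO pairs numbered 9 with a pseudocount of 1, 8 with a mean above 2 FPKM and 6 with the 5 Mb median removed. Those between the A2780 and PEA pairs numbered 0, 1 and 0 under the same 3 settings, and those between the A2780 and PEO pairs 1, 3 and 3, with 4 under median centring and 5 by edgeR.

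Signs turned as follows. In the A2780 pair, median centring gave -0.042, -0.16 and -0.29 for the promoter sums of HMGA1, IGF2BP1 and IGF2BP2, -0.17 for the IGF2BP1 distal sum, and -0.26 and -0.017 for the IGF2BP1 window at 47072700 and the IGF2BP3 window at 23507100. The 5 Mb median gave -0.26, -0.39 and -0.016 for the same promoter sums, -0.30 and -0.28 for the distal sums of IGF2BP1 and IGF2BP3, and -0.44 for the IGF2BP1 window. edgeR gave -0.010, -0.15 and -0.307 for the promoter sums, -0.24, -0.031 and -0.072 for the distal sums of IGF2BP1, IGF2BP2 and IGF2BP3, and -0.27 and -0.0069 for the 2 windows. In the PEA pair the 5 Mb median gave 0.58, 0.13 and -0.36 for the promoter sums of HMGA1, IGF2BP1 and IGF2BP2, 0.55, 0.092 and -0.35 for their distal sums, and 0.27 for the IGF2BP1 window at 47093400, while GC correction gave 0.20 and the gene span alone 0.48 for the HMGA1 distal sum. In the PEO pair the 5 Mb median gave 0.069 for the IGF2BP3 promoter sum and -0.18 and 0.15 for the distal sums of HMGA1 and IGF2BP3, and median centring 0.0073 for the latter.

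With the replicate number as a block the counts were 0, 3 and 4 windows called and 18, 4 and 9 that differed between pairs, and it changed no count. Same-numbered libraries correlated in their deviations at -0.158 to 0.0643, and they share only a number. Windows with few reads limit the test: IGF2BP1 promoters were under 1 FPKM in the PEO pair.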

Other observations

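Other oncofetal genes were read from a list of 8, chosen with earlier results known. Of 4 promoter sums tested, 0 changed in the A2780 pair and 0 in the PEO pair (limma, with 3 and 3 at an unadjusted p under 0.05), and 2 rose in PEA2: GPC3, a cell surface proteoglycan of fetal liver, by 1.37 on the log2 scale, and TPBG, the trophoblast glycoprotein, by 1.32. Of all promoter sums 8.43%, 12.6% and 20% changed in the A2780, PEO and PEA pairs. At distal windows 3 of 5 rose in PEA2, GPC3 from 1.90 ± 0.122 FPKM to 11.7 ± 2.64 FPKM (log2 2.55, adjusted p = 1.41e-18), DLK1 (1.61) and TPBG (1.13), and PEG10 fell by 1.27, where 32.5% of all distal sums changed. The distal sums in the same 5 Mb had a median of 0.73 at GPC3, 0.14 at DLK1 and 2.49 at TPBG, which is above TPBG's own change. In the PEO pair 3 of 6 fell, GPC3 from 29.5 ± 0.165 FPKM to 9.09 ± 0.718 FPKM (log2 -1.69, adjusted p = 2.69e-16), DLK1 by 2.15 and AFP, the alpha-fetoprotein gene, by 3.07, where 23.9% of all distal sums changed. The AFP sum is 1 window, at 2.23, 2.53 and 3.01 FPKM in PEO1 and with means of 0.482 FPKM or less in the other lines. It is in the table through PEO1, so its low level in PEO4 is in part fixed by that selection. In the A2780 pair 0 of 4 distal sums passed, where 8.18% of all distal sums did, with 3 at an unadjusted p under 0.05.

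Some promoters of cell state markers also changed in the PEA pair, where 20% of all promoter sums did. The promoters of VIM, ZEB1 and CDH2, genes of mesenchymal cells, fell in PEA2 by 2.76, 1.25 and 1.01 on the log2 scale (3 of 3 tested), and those of CDH1, the epithelial cadherin, and MUC16, which encodes the CA125 antigen, rose by 1.21 and 1.41 (2 of 8 tested). The other 6 epithelial promoters did not pass and lay on both sides of 0, with KRT18 at -0.89, KRT8 at -0.25, PAX8 at -0.13, EPCAM at 0.32, KRT7 at 0.91 and WT1 at 0.97. In CP70 the epithelial keratin genes KRT8 and KRT18 rose by 1.00 and 1.39 at their promoters (2 of 7 tested). Of all promoter sums 8.43% changed in the A2780 pair. The share of these higher in CP70 was 92.3%, and 23.2% when each library was centred on its median. In the PEO pair 0 of 8 epithelial and 0 of 3 mesenchymal promoters passed, where 12.6% of all promoter sums did. Of these 8 and 3 promoters 6 and 3 had an unadjusted p under 0.05 (limma). The distal sum of PTPRC, a leukocyte gene, stood at 0.953 FPKM in PEA1 and 2.99 FPKM in PEA2 and at 12.3 FPKM in PEO1 and 1.66 FPKM in PEO4, without a promoter window in the table.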
